A study of Homo sapiens with 6 samples.

Results

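A group of 10 enzymes that make, remodel or degrade glycerophospholipids and lysophospholipids was followed in Hep G2 cells given a *miR-195* or a *miR-497* mimic. They are the degrading enzymes *LYPLA1*, *LYPLA2*, *PLA2G15*, *PLA2G6* and *TMEM86B* and the synthetic enzymes *AGPAT1*, *AGPAT2*, *LPCAT1*, *LPCAT3* and *PCYT1A*. They were taken by gene symbol from the deposited expression values, which list 21863 symbols, and all 10 were found with values above 0 in all 6 libraries. *LYPLA2*, *PLA2G15* and *TMEM86B* are 3 of the genes that the study put forward as *miR-195* target candidates. The study chose its candidates on the Ago2-IP values described here, on a target sequence in the 3′UTR and on lower array expression after transfection. Neither the *miR-195* score, the site nor a lower total RNA level with *miR-195* of these 3 genes is thus independent evidence.

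Glycerophospholipids are built from glycerol-3-phosphate by stepwise addition of fatty acyl chains, which gives lysophosphatidic acid and then phosphatidic acid. Phospholipases A remove an acyl chain and leave a lysophospholipid, which can be broken down further by lysophospholipases or given a new chain by acyltransferases. This cycle of removal and reacylation sets the acyl chains of membrane lipids, and in liver phosphatidylcholine is also a major part of secreted lipoproteins and bile.

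Hep G2 is a line of human liver tumor cells. The cells were transfected with dsRNA mimicking *miR-195* (5 nM, 24 hours), with dsRNA mimicking *miR-497* (5 nM, 24 hours), or were not transfected, and the labels give a time of 0 hours for the last group. From each condition 1 library was made from total RNA and 1 from the RNA precipitated with an antibody against Ago2, the protein of the RNA-induced silencing complex that holds a miRNA and the mRNAs bound by it (Ago2-IP). No library of cells given a control dsRNA is among the 6, so the effect of transfection itself and the effect of a mimic cannot be told apart against the non-transfected libraries. With 1 library per condition and fraction, no spread between replicates can be given and no test was made. Values are RPKM, read numbers scaled to gene length and to the mapped reads of the library. A lower RPKM in such bulk RNA cannot tell fewer expressing cells from less RNA per cell.

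In the libraries as a whole, whole read numbers could be inferred from the steps of the RPKM values for 13550 of 15487 genes tried (87.5%). These genes held 11222600 to 14123990 reads in the total RNA libraries and 1307429 to 2600573 in the Ago2-IP libraries. Among the 10 enzymes they were found for 8, and the reads of *LYPLA1* and *LYPLA2* were estimated from the length of the canonical transcript. The 95% intervals below cover counting error in these reads alone, and PCR copies are not independent molecules. The 7 hepatocyte markers were all present in total RNA, but at very different levels. *AFP* was highest, between 4295 and 4884 RPKM, and *TTR* lowest, between 1.52 and 4.81 RPKM. Of 6 markers of other cells, *PTPRC* and *COL1A2* were listed at 0 in every library. *CD68*, a macrophage marker, lay between 10.5 and 13.8 RPKM in total RNA, above *TTR*.

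The mature miRNAs are shown because they share the seed through which a miRNA pairs with its targets. Capitals mark the seed, positions 2 to 8 from the 5′ end, and the sequences are those of RefSeq (GRCh38.p14).
hsa-miR-195-5p: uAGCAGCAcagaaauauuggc
hsa-miR-497-5p: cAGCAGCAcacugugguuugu
Both miRNAs are 21 bases long and hold the same base at 12 positions. The seed pairs with the 7-base word TGCTGCT, which is referred to below as the target word.

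The target word was searched on the transcribed strand in the annotated 3′UTRs (GENCODE release 44 on GRCh37), and 5 of the 10 genes held it. Of these 5, 3 are the candidates, for which a site was part of the selection, and among the other 7 genes 2 held it. For scale, the word was present in 28.2% of the scored genes that have an annotated 3′UTR (3547 of 12592). The genes were *LYPLA2*, *PLA2G15*, *TMEM86B*, *AGPAT2* and *PCYT1A*. Sites of 4 of them are shown with 11 bases on each side and capitals for the word, since they are places where either mimic could pair.
*PLA2G15*, chr16:68293786-68293792, plus strand: gatggcaagaaTGCTGCTgatggtggaac
*TMEM86B*, chr19:55738226-55738232, minus strand: tgcccgcccccTGCTGCTgctctgaatcc
*AGPAT2*, chr9:139567674-139567680, minus strand: gaatcggggccTGCTGCTcctgctggcct
*PCYT1A*, chr3:195964362-195964368, minus strand: ggacctccctcTGCTGCTcctccagcaag
*PCYT1A*, chr3:195961940-195961946, minus strand: caattatatttTGCTGCTtttctttaatt
In *TMEM86B* another word (chr19:55738223-55738229) overlaps the one in capitals. The 8-base word TGCTGCTA, which adds an A after the target word, was absent from the 3′UTRs of all 10 genes.

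The 3′UTR of *AGPAT1* held no target word, but its coding part held 7, among the 35.1% of all scored genes with the word in a coding part. Of these, 4 overlapping words lie near the start codon, from base 26 of the 852-base coding sequence. The run is shown because it held the most overlapping words of any coding part of the enzymes.
*AGPAT1*, chr6:32139233-32139248, minus strand: catggaTGCTGCTGCTGCTGCTcttcct
*PLA2G6* held 5 words in its coding part, *PLA2G15* 4, *AGPAT2* 3, *TMEM86B* 2 and *LPCAT1* 1. In the canonical transcripts of *LYPLA1* and *LPCAT3* the word was found in no region.

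**Figure D1:**
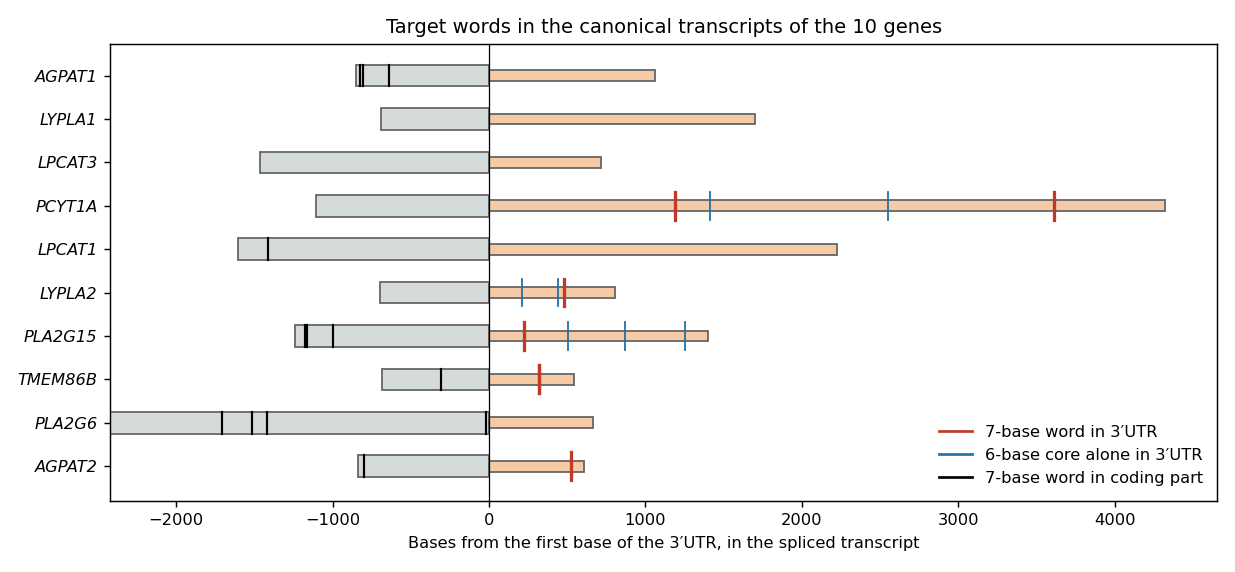
Position of the target word TGCTGCT and of its last 6 bases GCTGCT in the canonical transcript of each gene, drawn to scale in bases from the start of the 3′UTR (coding part in grey, 3′UTR in orange). The 7-base word lies in the 3′UTR of 5 genes, and 6 of the 7 coding words of *AGPAT1* lie near the start of its coding part.

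In total RNA of non-transfected cells the enzymes spanned a wide range of levels, from *AGPAT1* at 38.9 RPKM to *AGPAT2* at 0.444 RPKM. *AGPAT1* and *AGPAT2* add the acyl chain that turns lysophosphatidic acid into phosphatidic acid, so the highest and the lowest level belonged to enzymes of the same step. Below *AGPAT1* came *LYPLA1*, *LPCAT3*, *PCYT1A*, *LPCAT1*, *LYPLA2*, *PLA2G15*, *TMEM86B* and *PLA2G6* in this order, as drawn in the plot of RPKM by library. *AGPAT1* and *LYPLA1* could not be separated by counting error (ratio 1.04, 95% interval 0.981 to 1.10), nor could *LPCAT3* and *PCYT1A* (ratio 1.01, interval 0.930 to 1.10). Every other neighbouring pair differed beyond counting error, with ratios between 1.27 and 3.93. In non-transfected Ago2-IP the order was led by *LYPLA1* (9.35 RPKM) and *PCYT1A* (6.49 RPKM), and *AGPAT2* was again lowest, with 1 read. The ratio of Ago2-IP to total RNA in these cells was below 1 for all 10 enzymes, from 0.0865 for *AGPAT2* to 0.823 for *PLA2G6*, with a median of 0.215 against 0.326 for all genes.

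**Figure D2:**
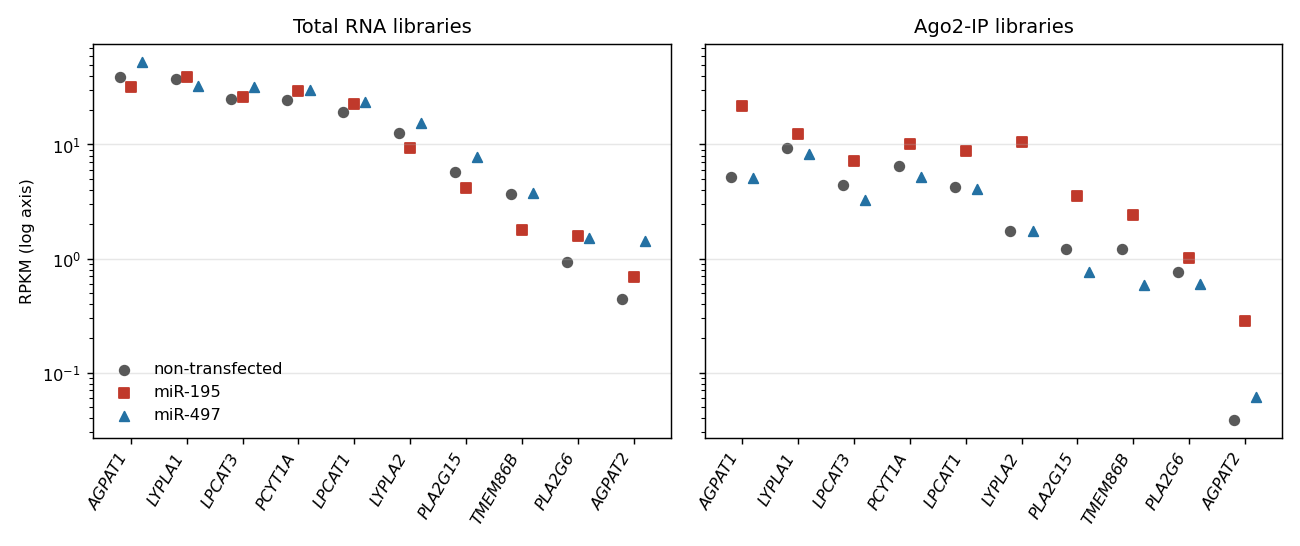
RPKM of the 10 genes (log axis) in the 3 total RNA libraries (left) and the 3 Ago2-IP libraries (right), 1 point per library, with genes ordered by their non-transfected total RNA level. In Ago2-IP the *miR-195* library was highest for all 10 genes. The median RPKM of genes above 0 in every library was also highest there. It was 3.56, against 2.49 without transfection and 2.07 with *miR-497*. The share of all genes highest in that library was not calculated.

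The comparison of *miR-195* with non-transfected cells asks which mRNAs gather on Ago2 when the miRNA is abundant, and which become scarcer in the cell. All 10 enzymes had more RPKM in Ago2-IP with *miR-195*, between 1.32-fold for *PLA2G6* and 7.41-fold for *AGPAT2*, the latter from 6 reads against 1 (interval 0.893 to 61.6). The median of all genes in the same comparison was 1.40-fold, and *LYPLA1* and *PLA2G6* lay below it. In total RNA the 3 candidates *LYPLA2*, *PLA2G15* and *TMEM86B* and the acyltransferase *AGPAT1* were lower, and the others were level or higher. Both measures enter the fold enrichment score, which takes the Ago2-IP to total RNA ratio of mimic cells relative to that of non-transfected cells, so a lower total RNA level raises the score.

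*LYPLA2* encodes a lysophospholipase that is also known as a thioesterase removing fatty acids from proteins. Its total RNA level was 12.5 RPKM without transfection, 9.40 after *miR-195* and 15.3 after *miR-497*. Its Ago2-IP level was 1.76, 10.4 and 1.73 RPKM in the same order. The *miR-195* library was thus the lowest of the 3 in total RNA and stood apart from the other two in Ago2-IP. Its total RNA was 0.751 of the non-transfected level (95% interval 0.661 to 0.852), its Ago2-IP 5.95-fold (4.36 to 8.11) and its score 7.92 (5.67 to 11.1). This score ranked 114 of 13749 genes. Its Ago2-IP to total RNA ratio went from 0.140 without transfection to 1.11 with *miR-195*. The intervals rest on estimated reads, 48.4 of them in non-transfected Ago2-IP.

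*PLA2G15* encodes a phospholipase A of the lysosome. It measured 5.75, 4.19 and 7.73 RPKM in total RNA (non-transfected, *miR-195*, *miR-497*) and 1.22, 3.51 and 0.758 RPKM in Ago2-IP. As for *LYPLA2*, the *miR-195* library was lowest in total RNA and highest in Ago2-IP. With *miR-195* its total RNA was 0.730 of the non-transfected level (0.630 to 0.845), its Ago2-IP 2.87-fold (2.10 to 3.92) and its score 3.93 (2.78 to 5.56).

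*TMEM86B* encodes lysoplasmalogenase, which cleaves the vinyl ether bond of lysoplasmalogens. It measured 3.65, 1.77 and 3.74 RPKM in total RNA and 1.22, 2.39 and 0.590 RPKM in Ago2-IP. Its total RNA level with *miR-195* was the only one of the 10 that lay below the non-transfected level by the 1.5-fold used as a limit here. The ratio was 0.486 (0.375 to 0.628), from 158 reads without transfection and 91 with *miR-195*, and the score was 4.03 (2.47 to 6.58).

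*AGPAT1* had the highest *miR-195* score among the acyltransferases. It measured 38.9, 31.9 and 52.9 RPKM in total RNA and 5.22, 21.8 and 5.13 RPKM in Ago2-IP. It had the same pattern as the candidates, lowest of the 3 libraries in total RNA and highest in Ago2-IP with *miR-195*. The Ago2-IP part of this pattern held for every enzyme of the group. The share of all genes with the pattern was not calculated, and 47.4% of the *AGPAT1* transcript bases lie opposite other genes. With *miR-195* the total RNA of *AGPAT1* was 0.821 of the non-transfected level (0.773 to 0.871). Its Ago2-IP was 4.18-fold (3.57 to 4.89) and its score 5.09 (4.30 to 6.02), at rank 314.

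*AGPAT2* measured 0.444, 0.683 and 1.42 RPKM in total RNA, from 17, 31 and 68 reads, and 0.0384, 0.285 and 0.0606 RPKM in Ago2-IP, from 1, 6 and 1 reads. In total RNA it was lowest without transfection, unlike *AGPAT1*. Its score of 4.82 had an interval from 0.535 to 43.4, so its enrichment was not detectable at this depth, and with a pseudocount of 1 its log2 score was 0.09 in place of 2.27.

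*LPCAT1* and *LPCAT3* encode acyltransferases that return a chain to lysophosphatidylcholine. *LPCAT1* measured 19.4, 22.8 and 23.4 RPKM in total RNA and 4.22, 8.84 and 4.04 RPKM in Ago2-IP, with a *miR-195* score of 1.78 (1.52 to 2.09). *LPCAT3* measured 24.9, 26.1 and 31.8 RPKM in total RNA and 4.45, 7.13 and 3.23 RPKM in Ago2-IP, with a score of 1.53 (1.24 to 1.88). The total RNA of neither gene was lower with *miR-195*, and the interval of the *LPCAT3* score took in the median score of all genes, 1.38.

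The remaining 3 enzymes had *miR-195* scores under that median. *PCYT1A*, the rate-limiting enzyme of phosphatidylcholine synthesis by way of CDP-choline, measured 24.6, 29.5 and 30.01 RPKM in total RNA and 6.49, 10.2 and 5.22 RPKM in Ago2-IP, and scored 1.30 (1.05 to 1.62) although its 3′UTR holds 2 target words. The lysophospholipase *LYPLA1* measured 37.4, 38.6 and 32.3 RPKM in total RNA and 9.35, 12.4 and 8.28 RPKM in Ago2-IP, and scored 1.28 (1.11 to 1.49). The calcium-independent phospholipase *PLA2G6* measured 0.928, 1.58 and 1.51 RPKM in total RNA and 0.763, 1.01 and 0.603 RPKM in Ago2-IP. Its total RNA was higher with either mimic, and its *miR-195* score of 0.775 (0.469 to 1.28) was the lowest of the 10.

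Counted at 1.5-fold, 7 of the 10 enzymes had a high *miR-195* score, against 41.8% of all scored genes, and their median score was 2.65 against 1.38 for all genes. In Ago2-IP 8 were higher (44.3% of all genes) and 0 lower (5.52%). The 3 candidates are among the 7 and among the 8. The study selected them partly on these values, so these counts and the median score are not independent of that selection. In total RNA 1, the candidate *TMEM86B*, was lower (7.62% of all genes), and *PLA2G6* and *AGPAT2* were higher (11.7%). The ratios were 1.71 (1.30 to 2.25) for *PLA2G6* and 1.54 (0.851 to 2.78) for *AGPAT2*, so that of *AGPAT2* took in 1. The median total RNA ratio of the enzymes was 1.04 and that of all genes 1.01. Dividing each library by its median RPKM shifted the Ago2-IP change with *miR-195* by 0.52 on the log2 scale, and 4 enzymes, *LYPLA2*, *PLA2G15*, *AGPAT1* and *AGPAT2*, were then higher in Ago2-IP in place of 8. Under that scaling *LYPLA1* and *PLA2G6* turned slightly lower in Ago2-IP, each with a log2 change of -0.11. The 7 high scores became 5, since *LPCAT1* and *LPCAT3* fell under 1.5. The log2 scores of *LYPLA1* and *PCYT1A* turned below 0, to -0.16 and -0.14. The shares of all genes were not recomputed under this scaling.

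The comparison of *miR-497* with non-transfected cells addresses the same question for the other mimic, and it shares the non-transfected libraries with the comparison above. None of the 10 enzymes reached a score of 1.5, a level reached by 6.39% of all scored genes. Their scores ran from 0.461 for *PLA2G15* to 1.03 for *LYPLA1*, with a median of 0.611 against 0.824 for all genes. The median total RNA ratio was 1.25 for the enzymes and 1.06 for all genes, and *LYPLA1* alone was below 1, at 0.862 (0.815 to 0.912).

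*LYPLA2* differed little from non-transfected cells in Ago2-IP with *miR-497* (0.987, interval 0.627 to 1.56), while its total RNA was 1.22-fold (1.09 to 1.37). *PLA2G15* was 1.35-fold in total RNA (1.19 to 1.53) and 0.621 in Ago2-IP (0.379 to 1.02). *TMEM86B* was 1.03-fold in total RNA (0.834 to 1.26) and 0.483 in Ago2-IP (0.246 to 0.948), where it had 11 reads. No candidate was thus lower in total RNA with *miR-497* beyond counting error. *AGPAT1* was 1.36-fold in total RNA (1.29 to 1.43) and 0.982 in Ago2-IP (0.786 to 1.23).

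At 1.5-fold, *PLA2G6* (1.63) and *AGPAT2* (3.19, interval 1.88 to 5.44) were higher in total RNA with *miR-497*, against 16.8% of all genes, and 0 were lower (4.39%). In Ago2-IP *PLA2G15* and *TMEM86B* were lower (19.1% of all genes) and *AGPAT2* was higher (7.6%), the last from 1 read in each library. With libraries scaled by their medians, 1 enzyme was lower and 1 higher in Ago2-IP, in place of 2 and 1. That scaling shifted the Ago2-IP change by -0.27 and the total RNA change by 0.11 on the log2 scale. It put *LYPLA1*, *LYPLA2*, *LPCAT1* and *AGPAT1* slightly above the non-transfected level in Ago2-IP, between 0.09 and 0.25, and *TMEM86B* slightly below it in total RNA, at -0.07.

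**Figure D3:**
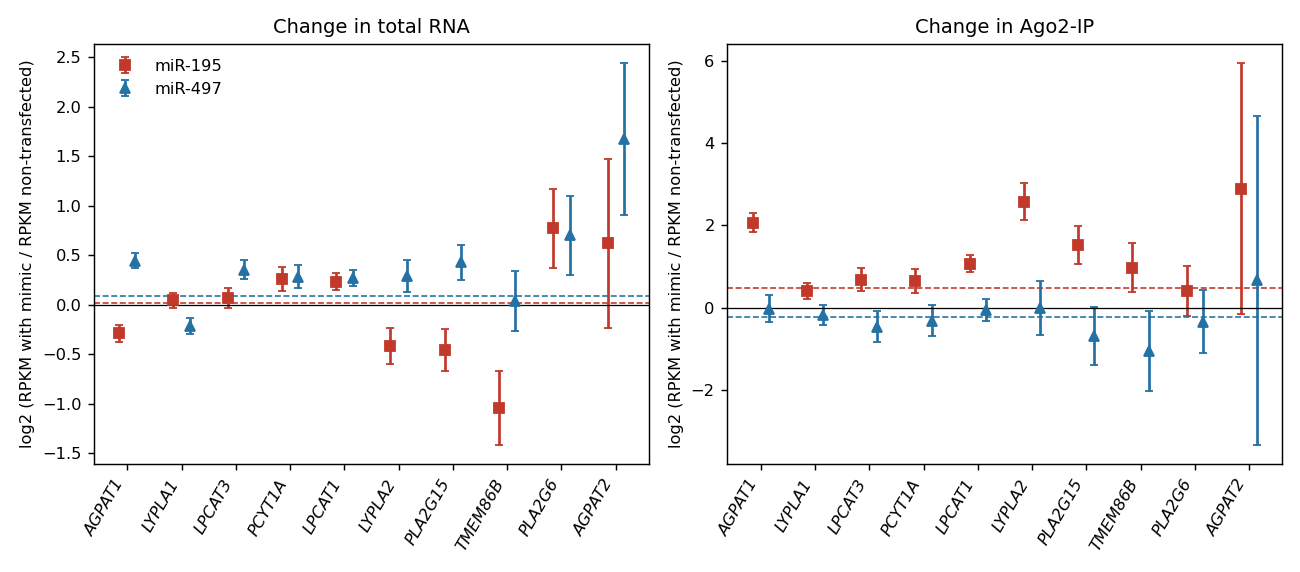
Log2 ratio of mimic to non-transfected RPKM for the 10 genes in total RNA (left) and Ago2-IP (right), with 95% counting intervals as bars and the median of all scored genes as dashed lines. In total RNA the *miR-195* points of *LYPLA2*, *PLA2G15*, *TMEM86B* and *AGPAT1* lie below 0 with their bars, and no *miR-497* point of these genes does.

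A direct comparison of the mimics leaves out the non-transfected libraries, and both arms were transfected at the same dose and collected at the same time. The enzymes separated into 5 that were lower in total RNA and higher in Ago2-IP with *miR-195*, and 5 whose total RNA was within 1.5-fold. The 5 were *LYPLA2*, *PLA2G15*, *TMEM86B*, *AGPAT1* and *AGPAT2*, as seen in the plot of one mimic against the other. The first 3 are the candidates. The study selected these partly for Ago2-IP enrichment and lower RNA with *miR-195*, so their place among the 5 is not independent of that selection. Lower total RNA was found for 8.77% of all genes and higher total RNA for 4.22%, the latter with 0 of the 10 enzymes. Higher Ago2-IP was found for 56.6% of all genes. The share of all genes both lower in total RNA and higher in Ago2-IP was not calculated.

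For *LYPLA2* the total RNA with *miR-195* was 0.614 of that with *miR-497* (0.547 to 0.690), and the Ago2-IP was 6.02-fold (4.12 to 8.80). For *PLA2G15* these ratios were 0.542 (0.475 to 0.619) and 4.62 (2.94 to 7.26). For *TMEM86B* they were 0.473 (0.369 to 0.606) and 4.05 (2.13 to 7.73). The ratios of the 3 candidates thus lay on opposite sides of 1 in the 2 fractions. So did the medians of all genes, at 0.950 in total RNA and 1.61 in Ago2-IP. *AGPAT1* had ratios of 0.603 (0.572 to 0.636) and 4.25 (3.51 to 5.14), which lay among those of the candidates. *AGPAT2* had ratios of 0.481 (0.315 to 0.736) and 4.69 (0.565 to 39.0), the latter from 6 reads against 1.

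In total RNA, *LPCAT3* was also lower with *miR-195* beyond counting error (0.821, 0.772 to 0.874), and *LYPLA1* was higher (1.197, 1.13 to 1.26). *LPCAT1*, *PCYT1A* and *PLA2G6* had ratios of 0.975, 0.984 and 1.05 with intervals that took in 1. In Ago2-IP 9 of the 10 enzymes were higher with *miR-195* by 1.5-fold, against 56.6% of all genes, and 0 were lower (3.83%). The 9 include the 3 candidates. The exception was *LYPLA1* at 1.496 (1.27 to 1.76). With libraries scaled by their medians the 9 became 5, the same 5 that were lower in total RNA. *LYPLA1* and *PLA2G6* were then slightly lower in Ago2-IP, at -0.20 and -0.04 on the log2 scale. The share of all genes was not recomputed under this scaling, so the 5 cannot be set against it.

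**Figure D4:**
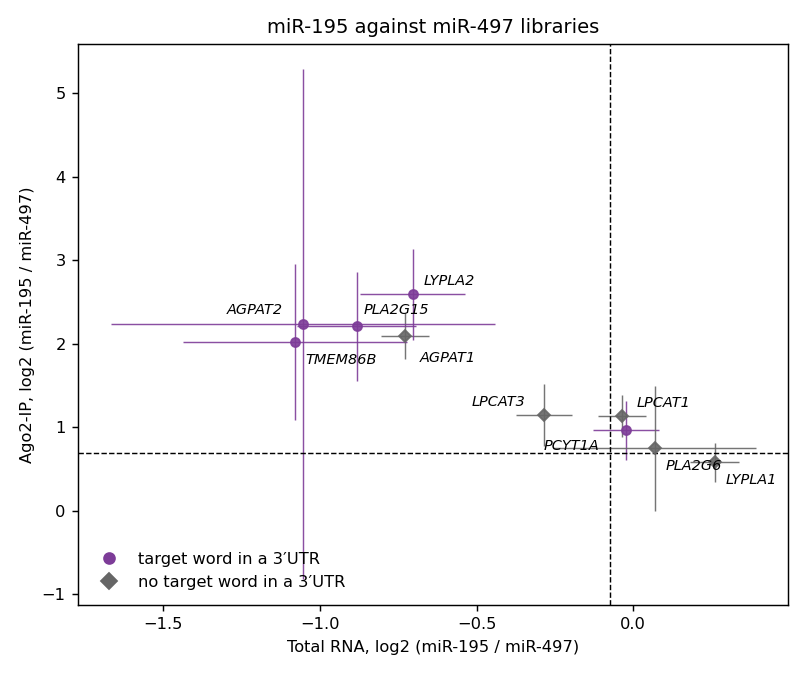
Log2 ratio of *miR-195* to *miR-497* RPKM in total RNA (x axis) and Ago2-IP (y axis) for the 10 genes, with 95% counting intervals as bars and the medians of all genes as dashed lines; circles mark genes with the target word in a 3′UTR. *LYPLA2*, *PLA2G15*, *TMEM86B*, *AGPAT1* and *AGPAT2* lie at the upper left, with total RNA ratios of 0.473 to 0.614.

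Set beside the target words, the scores of the enzymes outside the 3 candidates went both ways. Of the pair with the word in a 3′UTR, *PCYT1A* scored 1.30 with *miR-195* and *AGPAT2* 4.82, the latter with an interval from 0.535 to 43.4. The 5 without it scored between 0.775 for *PLA2G6* and 5.09 for *AGPAT1*. The 3 candidates hold the word and score high because the study selected them for both, so no comparison of genes with and without the word was drawn from them. With *miR-497*, whose seed is the same, the 3 candidates scored 0.807 (*LYPLA2*), 0.461 (*PLA2G15*) and 0.470 (*TMEM86B*). The gene length implied by the reads of *PCYT1A* was 1581 bases, against 5546 bases for its canonical transcript, so the gene model behind its RPKM was shorter than the transcript in which its words were found.

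The rest of the pathway was described by 60 further genes of glycerophospholipid metabolism, all of them listed and 46 with at least 1 RPKM in non-transfected total RNA. A *miR-195* score could be calculated for 52, of which 25 (48.1%) reached 1.5 against 41.8% of all genes, and their median log2 score was 0.55 against 0.47 for all genes. In total RNA with *miR-195* 11 of the 52 (21.2%) were higher and 4 (7.69%) lower by 1.5-fold, against 11.7% and 7.62% of all genes. With *miR-497* 0 of 50 reached a score of 1.5 (6.39% of all genes), and in total RNA 8 (16%) were higher and 0 lower, against 16.8% and 4.39% of all genes. In the direct comparison of the mimics 4 of 51 (7.84%) were lower in total RNA with *miR-195*, a share near the 8.77% of all genes.

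By role, 6 of 17 scored genes of deacylation and head group removal reached a *miR-195* score of 1.5, against 41.8% of all genes. So did 4 of 7 of lysophospholipid acylation and 2 of 3 of glycerol-3-phosphate acylation. Groups this small do not show a difference between roles. The choline and ethanolamine branch had 6 of 13, and the group that uses phosphatidate had 7 of 12. Among those with at least 1 RPKM in non-transfected total RNA, the genes past 1.5-fold in total RNA in the same direction with both mimics were *CHKB* and *PCYT1B*. The share of all genes passing this rule was not calculated, and both changes are taken against the same non-transfected library. *PCYT1B*, which encodes another form of the *PCYT1A* enzyme, measured 4.39, 9.29 and 7.33 RPKM in total RNA, from 634, 1592 and 1326 reads, and was higher with both mimics. The choline kinase gene *CHKB* measured 1.04, 3.06 and 3.31 RPKM, but from 2, 7 and 8 reads. These reads imply a counted length of 77.9 bases against 1474 for its transcript, so its values may cover a small stretch of the gene only.

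Several of these values depend on how reads were assigned to genes, which the sources used here do not state. Of the 36-base words of the *LYPLA2* transcript (chr1:24117635-24122029, plus strand, GRCh37), 46.3% occur elsewhere in the genome, most often near its copy *LYPLA2P1*, whose listed values came to 2, 5 and 8 reads for total RNA and to 0, 3 and 0 reads for Ago2-IP. For *LYPLA1* the share was 51.7%. The other 8 transcripts had between 0 and 6.73% of such words.

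Genes on the opposite strand overlap 67.4% of the *LPCAT3* transcript bases (chr12:7085347-7125781, minus strand, mainly *EMG1*), 53.4% of *TMEM86B* (chr19:55738006-55740152, minus strand), 47.4% of *AGPAT1* (chr6:32135989-32145873, minus strand, mainly *PPT2-EGFL8*) and 26.3% of *PLA2G6* (chr22:38507502-38610785, minus strand). Without strand, reads of these genes and of their partners cannot be told apart. *PLA2G15* (chr16:68279207-68294961, plus strand), *PCYT1A* (chr3:195941093-196014828, minus strand), *AGPAT2* (chr9:139567595-139581909, minus strand) and *LPCAT1* (chr5:1456595-1524077, minus strand) had at most 8.89% of their bases overlapped.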

How the data were processed

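The authors mapped 36-base single reads of 6 libraries to hg19 with ELANDv2 and made the deposited RPKM values with CASAVA 1.7. The gene annotation, read filters, strand and the libraries with poly-A selection are not given in the sources used here. The 6 columns of values were each matched to a library, and 0 were left out. The file has 21891 lines, and where a symbol had several lines (28 symbols) their mean was taken.

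RPKM were used as deposited. Ratios and the fold enrichment score, as the study defines it, were calculated for genes above 0 in all libraries of a comparison, and 1.5-fold was used as the limit. Whole reads were inferred where the 6 values, each divided by its library's step, stood in whole-number ratios within 0.02 for low numbers, with the smallest number at most 3000. The procedure was also run on simulated data, and the outcome of that run is not given here. Intervals assume Poisson counts on the log scale. Target words, overlaps and repeated 36-base words were read from GRCh37 with GENCODE release 44. With 1 library per condition no p-value was calculated.

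All 10 enzymes were named. Other pathway genes were named where they had at least 1 RPKM in non-transfected total RNA and passed 1.5-fold in total RNA in the same direction with both mimics. The enzymes and lists were chosen with earlier results of these data known. Alternatives were pseudocounts of 0.1 and 1, a minimum of 1 RPKM in the 4 libraries of a comparison, median scaling, a 2-fold limit, and words of 6 and 8 bases. Those for the direct comparison of the mimics were added after the data were seen. Protein sequences were not used here, and the sequence of the *LYPLA2* site is not reported here. Python 3.11.15, numpy 2.4.6, pandas 2.3.3 and matplotlib 3.10.9 were used.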

Additional observations from a re-analysis of the deposited data

Results flagged for a closer look

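The changes of 5 enzymes pointed in opposite directions with the 2 mimics, with counting intervals that excluded no change in both cases and with the same directions after median scaling. The difference was not tested, since each condition had 1 library, and both changes are taken against the same non-transfected library. The share of all genes with such opposite changes was not calculated. For the candidates *LYPLA2*, *PLA2G15* and *TMEM86B* the direction with *miR-195* is not independent of the study's selection. In total RNA, the log2 change of *LYPLA2* was -0.41 after *miR-195* and 0.29 after *miR-497*. *PLA2G15* had -0.45 and 0.43, and *AGPAT1* had -0.28 and 0.44. In Ago2-IP, *TMEM86B* changed by 0.97 after *miR-195* and by -1.05 after *miR-497* (log2), the latter from 11 reads. *LPCAT3* had 0.68 and -0.46 in Ago2-IP, and 67.4% of its transcript bases lie opposite another gene. The Ago2-IP medians of all genes also pointed in opposite directions, 0.49 and -0.23, and the intervals of *TMEM86B* and *LPCAT3* took in these medians with both mimics. After median scaling their Ago2-IP changes were 0.45 and -0.79 (*TMEM86B*) and 0.17 and -0.20 (*LPCAT3*).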

How the results depend on the processing

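No paired analysis was possible because each condition and fraction had 1 library. Of the recomputed counts of enzymes, 23 moved by more than 1.5 times and 50 did not. The shares of all genes past a fold limit were not recomputed under these settings. With *miR-195*, the 2 enzymes higher in total RNA became 1 with a pseudocount of 0.1 and 0 with a pseudocount of 1, a minimum of 1 RPKM or a 2-fold limit. The 8 higher in Ago2-IP became 5 with a pseudocount of 1, 4 with median scaling and 5 with a 2-fold limit. With *miR-497*, the 2 higher in total RNA became 1 with a pseudocount of 1, 0 with a minimum of 1 RPKM and 1 with a 2-fold limit. The 2 lower in Ago2-IP became 0 with a pseudocount of 1 or a minimum of 1 RPKM, and 1 with median scaling or a 2-fold limit. The 1 higher in Ago2-IP became 0 with either pseudocount, the minimum or a 2-fold limit. Between the mimics, the 5 lower in total RNA became 2 with the minimum or a 2-fold limit, and the 9 higher in Ago2-IP became 5 with the minimum or median scaling. The minimum itself leaves 8 enzymes in the *miR-195* comparison and 6 in the others. With the 8-base word, 0 enzymes in place of 5 held a site. The cause was not tested for the other changes. The 7 high *miR-195* scores became 5 with a pseudocount of 1, median scaling or a 2-fold limit, which is within 1.5 times, and the 0 high *miR-497* scores stayed at 0. Of single log2 values per enzyme, 22 of those recomputed with median scaling and 5 of those with a pseudocount of 1 moved out of their 95% counting interval, none of those with a pseudocount of 0.1 did, and the minimum changes no single value. Depth limits *AGPAT2* most, with 1 to 6 reads in the Ago2-IP libraries.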
